A study of Mus musculus with 15 samples.

Results

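The genes described here are 10 products of enteroendocrine cells, the hormone-secreting cells scattered through the gut epithelium, out of 18194 genes on the array. They were taken as all probe sets whose array annotation gives 1 gene symbol equal to a listed name, which gave 11 probe sets, 2 for Neurod1 and 1 for each of the others. The RNA came from colon scrapings of male C57BL/6 mice aged 11 weeks, and each mouse had an array of its own. Both groups ate a high-fat, low-calcium diet for 14 days with 40% of its energy as fat, 6 of them without heme (control) and 9 with heme, the iron-porphyrin pigment of red meat, at 0.5 umol per g. A scraping holds whole mucosa, so the endocrine cells are a small share of it, and fewer cells of a type cannot be told apart from less RNA per cell.

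Enterochromaffin cells make serotonin, starting with the hydroxylase Tph1, and store it in dense-core granules built with the chromogranins Chga and Chgb. L cells make peptide YY (Pyy), the proglucagon peptides (Gcg) and, in the distal colon, insulin-like peptide 5 (Insl5). Granules of endocrine cells hold the convertase Pcsk1, which cuts prohormones, the granule protein Scg5, a chaperone of the related convertase Pcsk2, and Resp18, a regulated endocrine secretory protein. Neurod1 is a transcription factor of endocrine differentiation.

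The arrays gave log2 expression per probe set, with array medians of 3.11 to 3.24, and the number of arrays limits the precision. A linear signal of 20 was taken as the detection floor, and the 9257 genes over it on at least 6 arrays were tested by limma with Benjamini-Hochberg adjustment, at a threshold of 0.05. Of these, 53.6% were called in either direction, 26.4% lower and 27.2% higher with heme. All 9 heme mice lay below all 6 controls in 8.93% of tested genes, and above all controls in 11.2%. Control mouse 4 was low in the distal colon gene Hoxb13, at 3.77 against 9.72 to 11.78 in the other controls. Control mouse 2 was rich in the stromal gene Dcn, at 10.41 against a mean of 6.37, and heme mouse 6 had the highest level of the interferon-induced gene Gbp2, at 11.28.

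Promoters are shown for 4 members that were lower with heme, Chga, Chgb, Tph1 and Pcsk1. They share a short motif that the hormone genes of L cells lack in the same window. Resp18 and Neurod1, also lower with heme, lack it too, so the motif does not separate members that fell from those that did not. The sequences are from RefSeq (GRCm38.p6), 250 bases before to 50 after the annotated start, 5′ to 3′ on the strand of the gene. Capitals mark TGACG on either strand (CGTCA where it lies on the opposite strand), the core of the site TGACGTCA to which CREB-family factors can bind.
Chga, chr12:102554691-102554990, plus strand: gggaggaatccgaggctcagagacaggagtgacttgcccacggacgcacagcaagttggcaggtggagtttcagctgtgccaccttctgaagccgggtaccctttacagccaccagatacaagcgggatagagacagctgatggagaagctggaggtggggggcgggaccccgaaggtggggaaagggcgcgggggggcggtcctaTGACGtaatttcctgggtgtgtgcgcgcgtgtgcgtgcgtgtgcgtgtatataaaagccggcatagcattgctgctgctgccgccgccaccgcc
Chgb, chr2:132781392-132781691, plus strand: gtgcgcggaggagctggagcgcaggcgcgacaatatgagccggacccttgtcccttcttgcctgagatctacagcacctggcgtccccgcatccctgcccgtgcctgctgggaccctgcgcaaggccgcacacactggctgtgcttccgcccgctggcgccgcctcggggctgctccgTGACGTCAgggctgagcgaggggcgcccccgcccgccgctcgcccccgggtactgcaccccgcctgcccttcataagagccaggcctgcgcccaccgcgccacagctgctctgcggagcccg
Tph1, chr7:46667328-46667627, minus strand: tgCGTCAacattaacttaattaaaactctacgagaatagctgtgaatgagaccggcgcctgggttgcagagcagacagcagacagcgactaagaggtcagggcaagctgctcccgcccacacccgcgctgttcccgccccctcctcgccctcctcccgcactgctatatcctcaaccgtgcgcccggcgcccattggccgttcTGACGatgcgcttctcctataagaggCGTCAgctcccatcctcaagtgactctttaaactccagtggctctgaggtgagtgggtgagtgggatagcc
Pcsk1, chr13:75089607-75089906, plus strand: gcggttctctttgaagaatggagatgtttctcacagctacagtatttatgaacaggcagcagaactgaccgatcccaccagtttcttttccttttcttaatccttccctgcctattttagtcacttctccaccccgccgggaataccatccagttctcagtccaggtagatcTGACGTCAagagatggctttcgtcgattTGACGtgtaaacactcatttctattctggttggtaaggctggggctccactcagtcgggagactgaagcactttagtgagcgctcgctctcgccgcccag

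TGACG was found in 5 of the 10 members, the 4 shown and Scg5, and in 6 of their 13 promoter entries. Across all 32851 promoter entries of the same length it was found in 20.8%. The full site TGACGTCA was found in Chgb at position -72 from the start and in Pcsk1 at position -78, against 1.79% of all entries. No TGACG was found in the windows of Pyy, Gcg, Insl5, Neurod1 or Resp18. The E-box CANNTG, a motif that Neurod1 and many related factors can bind and whose reverse strand reads the same, was found in 9 of 10 members and in 72.3% of all entries. A match describes letters in this window and is no evidence of binding.

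Among the 10 genes, Chga, Chgb and Tph1, grouped here as enterochromaffin, and the other granule genes were lower in heme mice. The 3 L cell hormones were not called. Of 9 tested members 6 fell and 0 rose (limma, adjusted p under 0.05), beside 26.4% of all tested genes that fell, and 0 were higher at an unadjusted p under 0.05 as well. The median log2 change was -1.67 over the 9 tested members and -0.01 over all tested genes. In each of the 6 that fell, all 9 heme mice lay below all controls, which was so for 8.93% of tested genes. Falls of over 1 on the log2 scale were called for 5 members (Chga, Chgb, Tph1, Resp18 and Pcsk1) and 2.48% of tested genes. Falls of over 2 were called for 3 of these (Chga, Tph1 and Resp18) and 0.443% of tested genes. Fitted by probe set, 6 of the 11 member probe sets fell, beside 24.3% of all tested probe sets. Scg5 and the dimmer probe set of Neurod1 are among the 11 but were not tested. Of the tested members 5 lay over the floor in every mouse. Resp18, which is in each of these counts of falls, passed the filter on its control mice alone. Such a gene could pass only if it differed. Without Resp18, 5 of 8 tested members fell, with a median of -1.33. Scg5 did not pass the filter. The members were chosen with earlier results of these data known, so these shares describe the list and are no test of it.

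**Figure D1:**
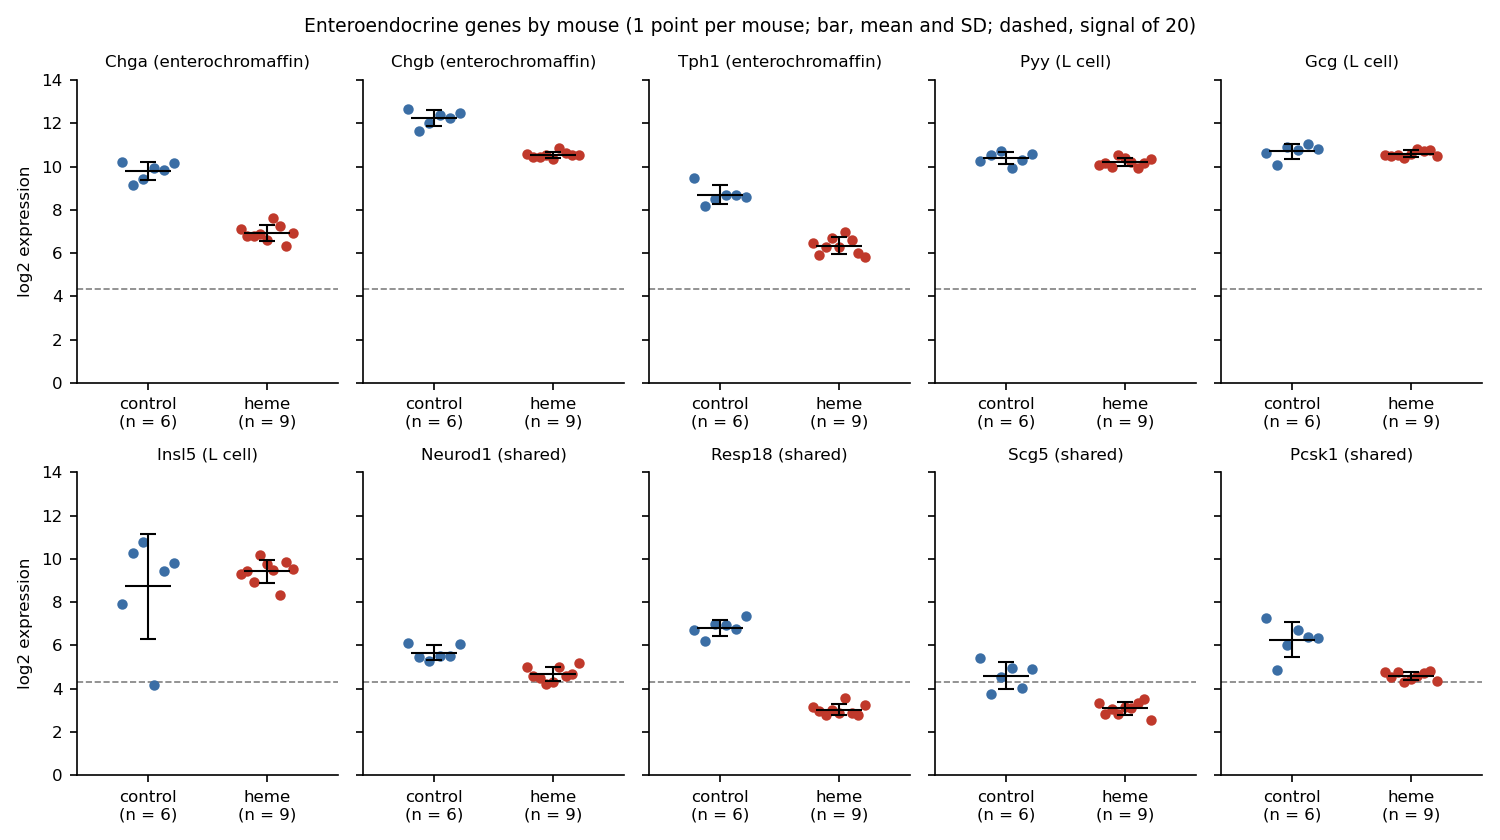
Log2 expression of the 10 genes in each mouse, controls in blue (n = 6) and heme mice in red (n = 9), with the mean and SD as bars and the signal floor of 20 as a dashed line. Chga, Chgb and Tph1 separate by diet, Pyy, Gcg and Insl5 overlap, and 1 control mouse has Insl5 at 4.16.

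Chga, the chromogranin that marks most enteroendocrine granules, ran from 9.15 to 10.20 in control mice with a median of 9.87, and from 6.34 to 7.63 in heme mice with a median of 6.90. The highest heme mouse, mouse 6, was still below the lowest control, mouse 2. The difference was -2.86 ± 0.19 (SE, adjusted p = 2.52e-08, limma), a 7.24-fold lower level. Chgb, the second chromogranin, ran from 11.66 to 12.67 in controls (median 12.31) and from 10.36 to 10.86 in heme mice (median 10.54). Its 9 heme values lay within 0.50 of each other, against a range of 1.01 in controls, and the groups did not overlap. The change in Chgb was -1.69 ± 0.12 (adjusted p = 6.37e-08, limma).

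Tph1, the rate-limiting enzyme of serotonin synthesis in enterochromaffin cells, ran from 8.19 to 9.48 in controls (median 8.65) and from 5.80 to 6.95 in heme mice (median 6.30). The extremes were again control mouse 2 at the bottom of its group and heme mouse 6 at the top of its own. Tph1 differed by -2.37 ± 0.20 (SE, adjusted p = 2.05e-07, limma), a 5.15-fold lower level. Mast cells also express Tph1. Of 11 mast cell markers 8 were under the floor on all arrays, among them the carboxypeptidase Cpa3 and the tryptases Tpsb2 and Tpsab1, and the proteases Mcpt1 and Mcpt2 were under it in all controls. In heme mice Mcpt1 and Mcpt2 were over the floor in 5 of 9, and all 9 lay above all controls for both, though neither gene was tested. What mast cells contributed to the change in Tph1 was not tested. The summed signal of the 11 markers was 612 to 1355 in controls and 407 to 694 in heme mice, most of it from Kit, which interstitial cells and crypt secretory cells also express and which fell by 1.28 ± 0.18 (adjusted p = 2.94e-05).

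Resp18 was over the floor in all controls and in no heme mouse. It lay between 6.22 and 7.33 in controls (median 6.85) and between 2.76 and 3.58 in heme mice (median 2.96). The groups lay far apart, and the level in controls was at least 5.65-fold higher. No test is read for Resp18, since the filter let it in through its controls alone.

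Pcsk1, the convertase that processes proglucagon among other prohormones, ran from 4.88 to 7.25 in controls (median 6.36) and from 4.28 to 4.79 in heme mice (median 4.59). Control mouse 2 lay just above the heme mice and control mouse 1 far above them. The change was -1.67 ± 0.25 (SE, adjusted p = 5.53e-05, limma), with 8 of 9 heme mice over the floor. Scg5 lay between 3.74 and 5.40 in controls, 4 of 6 over the floor, and between 2.56 and 3.49 in heme mice, none over it. The groups did not overlap, but Scg5 was not tested and its level in controls was at least 1.21-fold higher.

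Neurod1, by its brighter probe set, ran from 5.28 to 6.10 in controls (median 5.49) and from 4.20 to 5.16 in heme mice (median 4.60). The highest heme mouse, mouse 9, was close under the lowest control, mouse 3. The difference was -0.98 ± 0.16 (SE, adjusted p = 1.38e-04, limma). The dimmer probe set of Neurod1 had a mean of 4.47 ± 0.45 (SD, n = 6) in controls and 3.52 ± 0.35 (n = 9) in heme mice, with none of the heme mice over the floor, and was not tested.

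None of the 3 hormone genes of L cells was called. Pyy, which slows gut transit, ran from 9.91 to 10.73 in controls (median 10.43) and from 9.95 to 10.53 in heme mice (median 10.17). No heme mouse was below all controls, the lowest of which was mouse 4. The other 5 controls started at 10.27, above the heme median. The difference in Pyy was -0.19 with a 95% interval of -0.44 to 0.06 (adjusted p = 0.194, limma). Gcg ran from 10.08 to 11.02 in controls (median 10.79) and from 10.39 to 10.82 in heme mice (median 10.54). All heme values of Gcg lay inside the control range, but its low end was control mouse 2 alone. The next control was at 10.62, above the heme median. The difference in Gcg was -0.11 with an interval of -0.36 to 0.15 (adjusted p = 0.474, limma). Both intervals hold small falls, and neither reaches the changes of Chga, Chgb or Tph1.

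Small falls were called for these 2 genes under other choices. Pyy was at -0.28 without control mouse 4 (adjusted p = 0.0320, limma) and at -0.30 with the mean of 3 distal Hox genes as a covariate (adjusted p = 0.00783). Its adjusted p ran from 0.00783 to 0.832 over all alternatives. Gcg was at -0.23 without control mouse 2 (adjusted p = 0.0281, limma) and at -0.28 without control mice 2 and 4 and heme mouse 6 (adjusted p = 0.0169), in a range of 0.0169 to 0.794.

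Insl5 was the most variable of the 10 in controls, where it ran from 4.16 to 10.78 (median 9.61), against 8.32 to 10.18 in heme mice (median 9.47). The low value was that of control mouse 4, and the other 5 controls had 9.64 ± 1.10 (SD), overlapping the heme mice. The difference was 0.69 with a 95% interval of -0.91 to 2.29 (adjusted p = 0.462, limma). It took the opposite sign, at -0.23, without control mouse 4, and at -0.24 with the distal Hox covariate, with no call in either. The SD of Insl5 in controls, 2.44, was at percentile 99.9 among all tested genes, and that in heme mice, 0.54, at percentile 98.2.

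Insl5 was related to the position marker Hoxb13 in heme mice by Pearson's r, but not by Spearman's rho after adjustment. In the 9 heme mice Pearson's r between Hoxb13 and Insl5 was 0.837 (exact permutation p = 0.00412, adjusted p = 0.0391 over 38 tests of 19 relations), and Spearman's rho was 0.733 (exact p = 0.0311, adjusted p = 0.137). Without heme mice 7 and 9, whose Hoxb13 was farthest from the median, r was 0.819. For Pyy and Hoxb13 r was 0.621 (exact p = 0.0752, adjusted p = 0.178) and rho 0.567 (exact p = 0.121, adjusted p = 0.255), and for Gcg r was -0.126 (exact p = 0.744) and rho -0.05 (exact p = 0.912). These 3 relations were chosen after the values were seen. Among controls, mouse 4 stands apart in both genes, so no r is given there. Control mouse 4 was also the lowest control for Pyy, at 9.91, while its Chga (9.93), Tph1 (8.70) and Gcg (10.75) lay among the other controls.

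**Figure D2:**
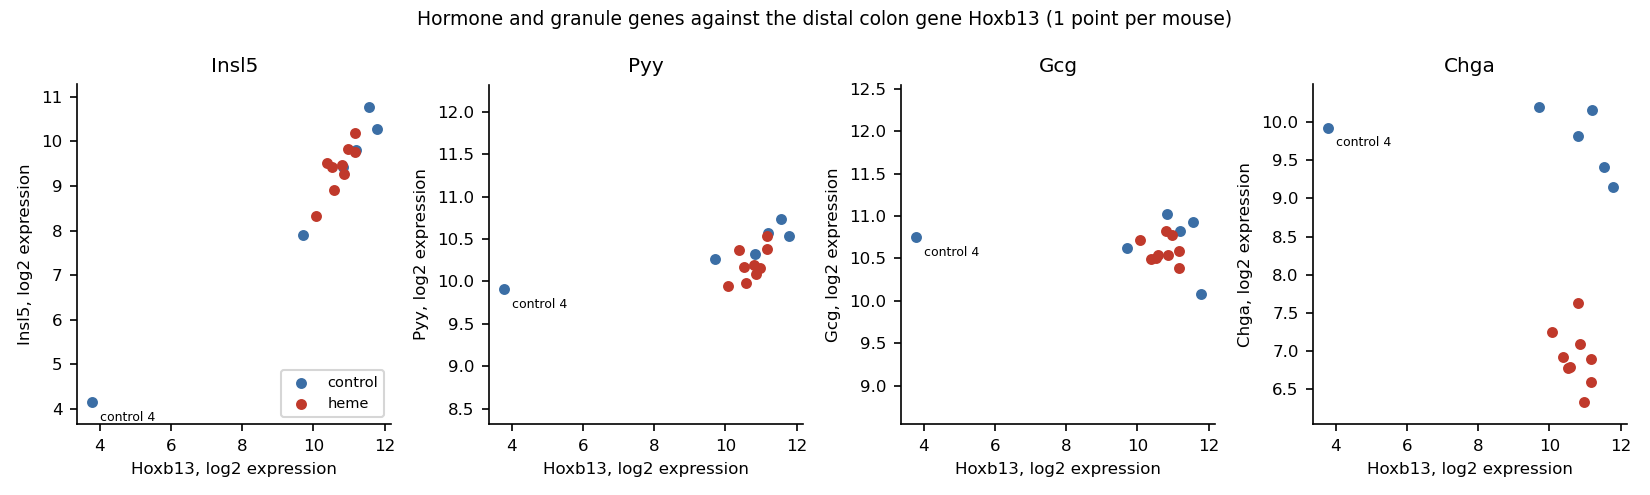
Log2 expression of Insl5, Pyy, Gcg and Chga against that of Hoxb13, 1 point per mouse, controls in blue and heme mice in red. Control mouse 4, at 3.77 for Hoxb13, has the lowest Insl5 (4.16), while for Chga it lies with the other controls, above all heme mice.

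Whether Chga, Chgb and Tph1 fell by more than the L cell genes was tested on the log2 ratio of 2 genes within each mouse. The 9 pairings were chosen after the values were seen. Chga and Chgb mark granules of other endocrine cells too, so their ratios are no contrast of enterochromaffin with L cells alone. Chga fell relative to Pyy by 2.67 ± 0.29 (SE) and relative to Gcg by 2.75 ± 0.20. Tph1 fell relative to Pyy by 2.18 ± 0.29 and relative to Gcg by 2.26 ± 0.23, and Chgb by 1.51 ± 0.24 and 1.59 ± 0.14. In these 6 pairings the ratio of all 9 heme mice lay below that of all controls, with p = 0.0002 (exact two-sided permutation test), the smallest that 5005 splits can give, and adjusted p = 3.00e-04 over the 9 pairings. Against Insl5, which is low in control mouse 4, the differences were -3.54 ± 1.12 for Chga, -2.38 ± 1.09 for Chgb and -3.05 ± 1.10 for Tph1 (exact permutation p = 6e-04, 0.0038 and 0.001). There 8, 5 and 8 of 9 heme mice lay below all controls. Without control mouse 4 these differences were -2.60 ± 0.71, -1.44 ± 0.67 and -2.14 ± 0.73 (exact permutation p = 0.0015, 0.00949 and 0.0025). In the 6 pairings with Pyy and Gcg all 9 heme mice again lay below all controls without that mouse. Chga, Chgb and Tph1 were already known to separate by diet, and the L cell genes were not called. The p-values of these overlapping pairings therefore repeat those falls and are no separate evidence of a difference between cell types.

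Relations between members were read within each diet group. Chga and Chgb varied together in controls (n = 6, r = 0.979, exact permutation p = 0.00139, adjusted p = 0.0352, and rho = 1, exact p = 0.00278, adjusted p = 0.0352), with r = 0.927 without control mice 2 and 3. In heme mice (n = 9) their r was 0.823 (exact permutation p = 0.00904, adjusted p = 0.0572) and rho 0.8 (exact p = 0.0138, adjusted p = 0.0751), with r = 0.975 without mice 6 and 8. Pyy and Insl5 varied together in heme mice (n = 9, r = 0.857, exact permutation p = 0.00259, adjusted p = 0.0352, and rho = 0.833, exact p = 0.00827, adjusted p = 0.0572), with r = 0.716 without mice 4 and 7. Chga and Pyy were at r = -0.199 (exact p = 0.612) and rho = -0.2 (exact p = 0.613) in heme mice and at r = -0.449 (exact p = 0.385) and rho = -0.429 (exact p = 0.419) in controls. Of the 19 relations, the 3 with an adjusted p under 0.05 for r were Chga with Chgb in controls and Pyy with Insl5 and Hoxb13 with Insl5 in heme mice. The last of them was chosen after the values were seen. Pyy and Gcg, both L cell products, were at r = -0.474 (exact p = 0.2) and rho = -0.4 (exact p = 0.291) in heme mice.

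**Figure D3:**
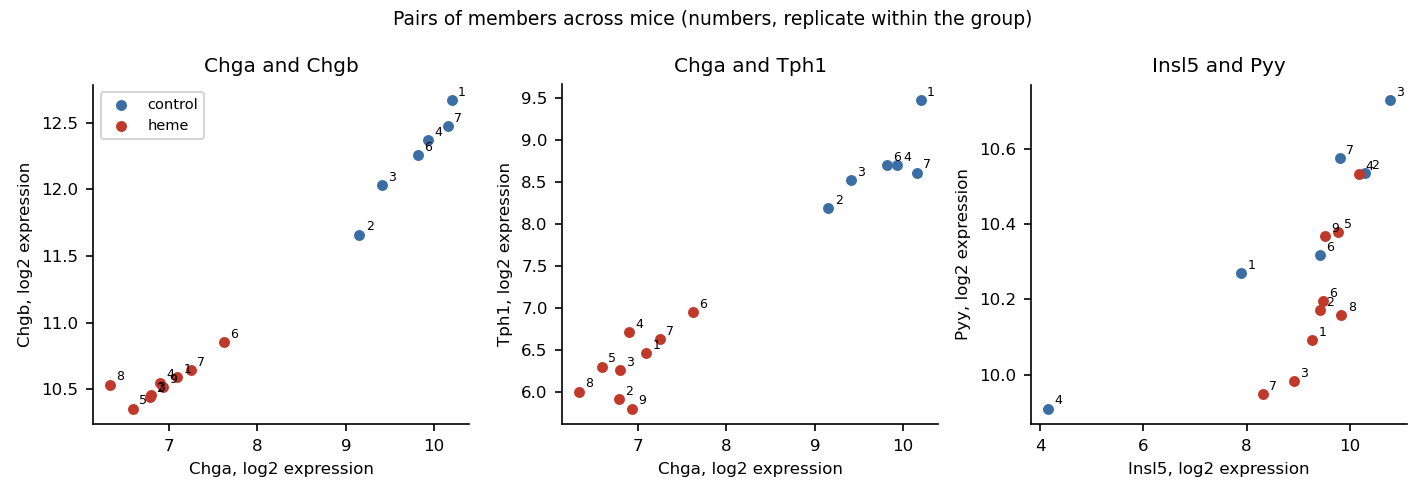
Log2 expression of Chgb against Chga, Tph1 against Chga and Pyy against Insl5, 1 point per mouse with its replicate number, controls in blue and heme mice in red. In controls the order of the mice is the same for Chga and Chgb (rho = 1), and in the third panel the diets overlap.

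The genes most like Chga and Insl5 were ranked by Pearson's r over 15 mice after each group mean was subtracted, among 9024 tested genes. For Chga the first 6 were Tut4 (r = 0.863), Chgb (0.856), Pitpnm3 (0.848), Hsd17b11 (0.848), Rin2 (0.845) and Phgr1 (0.841). Of these Hsd17b11, a hydroxysteroid dehydrogenase of lipid droplets, was higher with heme by 0.30 ± 0.08 (SE, adjusted p = 0.00536, limma) and the other 5 were lower. For Insl5 they were Eno3 (r = 0.992), Thbs4 (0.988), B3gnt7 (0.984), Anxa3 (0.975), B3gnt5 (0.975) and Prkacb (0.972). With so few mice control mouse 4 weighs on these values, and without it the r of the 6 genes with Insl5 was 0.882 to 0.965. Ranked anew without that mouse, Eno3, Thbs4 and B3gnt7 stayed among the first 6, and Anxa3, B3gnt5 and Prkacb did not. Of the 6 genes ranked over 15 mice only Anxa3 was called, higher by 0.75 ± 0.26 (adjusted p = 0.026).

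Other genes of the serotonin pathway changed in both directions, and a scraping does not tell which cells carried these changes. Of 8 tested genes on the enterochromaffin and serotonin list 3 rose, 1 fell and the other 4 had no call, beside 27.2% and 26.4% of all tested genes. Their median change was -0.01. Without the signal filter 3 of the 14 list genes on the array fell, beside 2765 of all 18194 genes. Gch1, which makes the cofactor of Tph1, ran from 8.01 to 8.42 in controls and from 9.28 to 10.08 in heme mice, a rise of 1.52 ± 0.11 (SE, adjusted p = 5.98e-08, limma). Maob, a monoamine oxidase, rose by 1.04 ± 0.11 and Ddc, the decarboxylase that completes serotonin and that absorptive cells also express, by 1.01 ± 0.13. With its probe sets averaged the rise of Ddc was 0.37, still called. Tac1, the tachykinin precursor that many enterochromaffin cells make, fell by 0.50 ± 0.08, with all 9 heme mice below all controls, but with its probe sets averaged it was at -0.15 and not called (adjusted p = 0.0647). The serotonin transporter Slc6a4 was at -0.39 ± 0.39 (adjusted p = 0.419). The vesicular transporter Slc18a1 was under the floor on all arrays.

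Of 6 other tested hormone genes 2 fell (Sct and Nts) and 1 rose (Nucb2). The other 3, Guca2a, Guca2b and Adm, had no call. The median change was 0.02, which does not describe the 2 that fell. Falls were called for 26.4% of all tested genes. Without the signal filter they were called for 4 of the 14 genes of this list and 2765 of all 18194 genes. Secretin (Sct) ran from 6.72 to 9.27 in controls and from 6.52 to 7.09 in heme mice, with 7 of 9 heme mice below all controls and a fall of 1.06 ± 0.27 (SE, adjusted p = 0.0038, limma). Control mouse 4 had the highest value, 9.27, and without it Sct was at -0.75. With a smooth muscle score as a covariate it was at -1.90, Nts at -1.56 and Nucb2 at 1.67, all still called. Neurotensin (Nts), an L cell product of the distal gut, fell by 0.76 ± 0.26 (adjusted p = 0.0199), with no heme mouse below all controls. The Nts call was lost without control mouse 1 (-0.64, adjusted p = 0.0542) and without control mouse 4 (-0.63, adjusted p = 0.0522). Nucb2, the nesfatin precursor, rose by 0.99 ± 0.22 (adjusted p = 0.0016). Somatostatin (Sst) and Iapp were over the floor in 3 and 4 of 6 controls and in no heme mouse, and were not tested. Cck, Gip, Ghrl, Gal, Gast and Penk were under the floor on all arrays.

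Of 10 tested granule and regulated secretion genes 6 fell and 1 rose, beside 26.4% and 27.2% of all tested genes. The other 3 had no call, and the median change was -0.41. Pcsk1n, an inhibitor of Pcsk1, was at 4.47 to 5.00 in controls and at 2.73 to 3.44 in heme mice, none of them over the floor. It passed the filter on its controls alone, and its level there was at least 1.36-fold higher. Without Pcsk1n, 5 of 9 genes of the list fell, with a median of -0.37. Without the signal filter 11 of the 23 list genes on the array fell, beside 2765 of all 18194 genes. Carboxypeptidase E (Cpe), which trims peptides after the convertases, ran from 8.53 to 9.41 in controls and from 7.62 to 8.38 in heme mice and fell by 1.17 ± 0.13. The calcium sensor of exocytosis Syt7 fell by 0.99 ± 0.06, and all 9 heme mice lay below all controls in Cpe and Syt7. With probe sets averaged Cpe was at -0.57 and Syt7 at -0.65, and with the smooth muscle score Cpe was at -0.71, each still called. Rab3b, a vesicle GTPase, rose by 0.99 ± 0.23. Snap25, a fusion protein of endocrine cells and neurons, was over the floor in 4 of 6 controls and no heme mouse.

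Among 6 tested endocrine transcription factors 3 fell and 0 rose, beside 26.4% and 27.2% of all tested genes, with a median of -0.27. Without the signal filter 5 of the 15 on the array fell and 1 rose, beside 2765 and 2898 of all 18194 genes. Sox4 (-0.50 ± 0.06, SE), Atoh1, the switch of the secretory lineage (-0.36 ± 0.09, adjusted p = 0.004, limma), and Foxa1 (-0.36 ± 0.05) fell, all 3 factors also of other epithelial cells. Adding the smooth muscle score to the fit ended the Atoh1 call (-0.34, adjusted p = 0.0804). Insm1, which acts in endocrine progenitors, was at -0.14 ± 0.16 (adjusted p = 0.492). Neurog3, the factor that starts the endocrine lineage, and Pax4, Pax6 and Isl1 were under the floor on all arrays. Of 5 tested sensing genes 2 fell and 0 rose, beside the same 26.4% and 27.2%. The glucose transporter Slc5a1 fell by 0.68 ± 0.07 and the short-chain fatty acid receptor Ffar2 by 0.59 ± 0.21 (adjusted p = 0.0244, limma). The Ffar2 call was lost without control mouse 1, 3 or 4 (-0.45, -0.55 and -0.50, adjusted p = 0.068, 0.052 and 0.0605) and with the distal Hox covariate (-0.47, adjusted p = 0.0556). With the smooth muscle score it was at -1.05 and called.

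**Figure D4:**
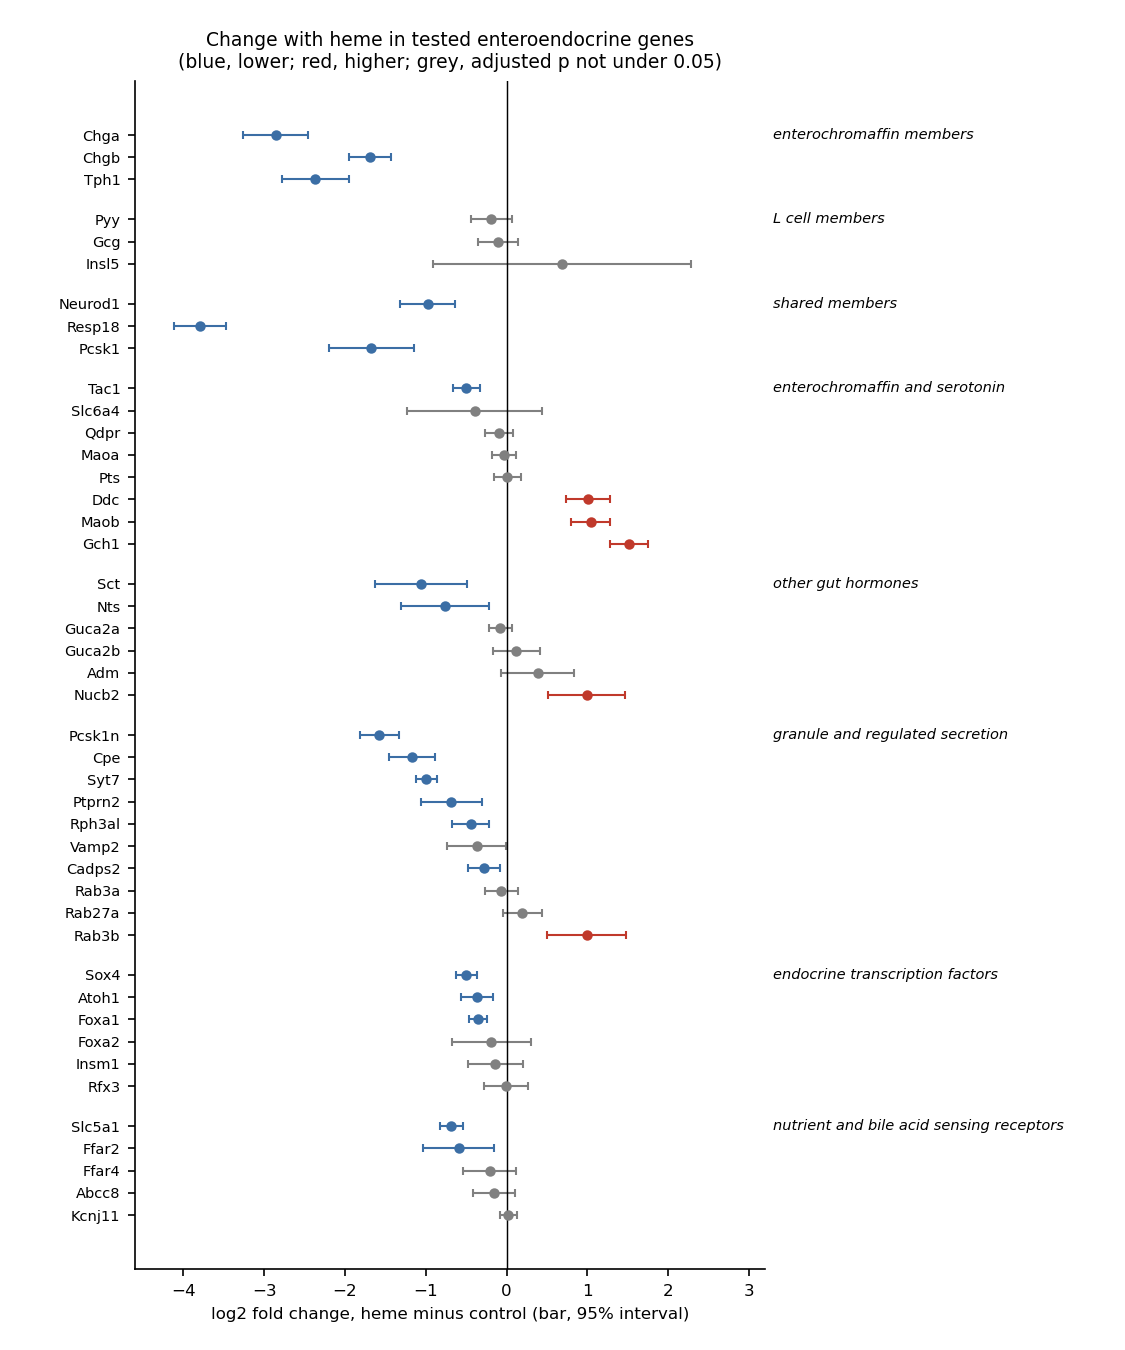
Log2 fold change, heme minus control, with its 95% interval for 9 tested members (upper 3 groups) and the tested genes of 5 further enteroendocrine lists, blue for lower, red for higher and grey for no call. The enterochromaffin and shared members lie left of 0 and the L cell members span it, while Gch1, Maob, Ddc, Nucb2 and Rab3b lie to the right. For Resp18 and Pcsk1n the plotted values rest on heme mice under the floor, and their measured bounds are 5.65-fold and 1.36-fold.

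Markers of other cells were read beside these results. Of 14 enteric neuron markers on the array 13 were under the floor in every mouse, the exception being Snap25, and their summed signal was 116 to 149 in controls and 99.8 to 112 in heme mice. All 3 glial markers were under the floor. Of all tested genes 26.4% were called lower and 27.2% higher. Smooth muscle markers were lower in heme mice, 5 of 5 tested, with summed signals of 623 to 6044 in controls and 338 to 933 in heme mice. The largest of these falls was that of the myosin Myh11 at -2.45 ± 0.39 (SE). Fitted beside the smooth muscle score, Chga was at -3.19, Tph1 at -2.66 and Pcsk1 at -2.35, each still called. The 10 epithelial markers summed to 83842 to 87706 in controls and 84989 to 93888 in heme mice, 1 lower, 3 higher (the keratin Krt20 most, by 0.39 ± 0.05) and 6 with no call. With their mean as a covariate, added once the values were known, the change of Chga was -2.91. Of the 5 fibroblast markers 4 were tested and none was called, and their summed signal was 459 to 7088 in controls, the top value in control mouse 2, and 729 to 2060 in heme mice.

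Control mouse 2 was the lowest control for Chga, Chgb, Tph1, Gcg, Resp18, Scg5 and Pcsk1, and heme mouse 6 the highest heme mouse for Chga, Chgb, Tph1, Gcg and Resp18. Both place their mouse nearer to the other diet for those of these genes that fell, and Gcg was not called in the main fit. For Neurod1 the lowest control was mouse 3 and the highest heme mouse was mouse 9. For Pcsk1 the highest heme mouse was mouse 8. Without control mice 2 and 4 and heme mouse 6, 7 members fell, beside 2456 of 9257 tested genes, with Chga at -3.06 and Pcsk1 at -1.91. What stromal content or the interferon response contributed to these 2 positions was not tested.

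The tuft and goblet cells, other secretory cells of the colon epithelium, serve for comparison. Of the tuft genes, the kinase Dclk1 was at -1.40 ± 0.17 (SE), with 2 of 9 heme mice over the floor, and Avil at -0.79, both called lower. Trpm5 passed the filter on its controls alone, where its level was at least 1.42-fold higher. With probe sets averaged 1 tuft gene was called, beside 2362 higher and 2006 lower of 8319 tested genes. Of 8 goblet genes 5 fell, beside 26.4% of all tested genes, with a median of -0.19. The largest of these falls was that of Fcgbp at -0.54 ± 0.08. With the smooth muscle score 2 goblet genes fell, beside 1744 of 9257 tested genes. No test of these lists against the enteroendocrine genes was made.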

How the data were processed

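Expression was measured with 1 Affymetrix array for each of 15 mice. The authors made the deposited log2 values with GCRMA 2.22.0, per the submitters' processing notes, which corrects background, normalizes arrays and summarises probes. No other step is named in the labels. Of 45101 probe sets 34958 have 1 gene symbol in the array annotation, 932 several and 9211 none listed here. A gene was its probe set with the highest mean. A gene was tested if its signal exceeded 20 on 6 or more arrays. The 2 groups were compared by limma 3.58.1 (R 4.3.3), using lmFit, then eBayes, and p-values were adjusted by Benjamini-Hochberg across the 9257 genes. The labels call the mice separate animals, 1 array each. The procedure was tested on simulated data. Where all arrays of a group lay under the floor, folds are given against it as "at least". Relations within a group used exact permutation tests.

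The members and lists were chosen with earlier results of these data known. Named genes are the members, the 2 largest called changes of each endocrine list (1 for other cells) the 6 genes most like Chga and Insl5, and Hoxb13, Dcn and Gbp2 for mice that stand apart. Others (Tac1, Ddc, Slc6a4, Nts, Syt7, Rab3b, Insm1, Foxa1, Avil, Trpm5 and genes under the floor) were named after their values were seen. Control replicate 5 was not analysed here. Groups share the replicate numbers 1 to 4, 6 and 7. Same-numbered mice did not deviate together over all tested genes (r of -0.19 to 0.20), and the main fit used no pairing. A pairing that affects few genes would not show in these r.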

Additional observations from a re-analysis of the deposited data

Results flagged for a closer look

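In 52 groups of values, the 11 member probe sets and 15 named list genes in each diet, 3 values stood far from the rest of their group by Dixon's test at the 95% level. Chance gives about 1 in 20 groups. None of the 3 was a member. Atoh1 was at 10.83 in control mouse 1, the highest control, with the next at 10.31. Kit was at 9.103 in control mouse 2, the lowest control. Fcgbp was at 13.52 in control mouse 2, the highest control, with the next at 13.25.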

How the results depend on the processing

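The count of members that fell was 6 to 7 in 27 of 28 alternatives, and 0 members rose in all 28. At a signal floor of 100 it was 3, because Neurod1, Resp18 and Pcsk1 were then not tested. Without each mouse in turn the count was 6 to 7. With the replicate number as a block, 6 members fell and Chga was at -2.71, and no member's call changed. The calls of Nts (-0.68, adjusted p = 0.110, limma) and Ffar2 (-0.50, adjusted p = 0.141) were lost under the block. Insl5 took the opposite sign without control mouse 4 (-0.23), with the distal Hox covariate (-0.24) and with control mice 2 and 4 and heme mouse 6 left out (-0.071). Without each mouse in turn it ran from -0.23 to 1.10, with the smooth muscle score it was at 2.41, and it was called in none of 28. Over the alternatives Chga ran from -3.19 to -2.71, Tph1 from -2.66 to -2.21 and Chgb from -1.99 to -1.61. Fitted without the filter, 8 of the 11 member probe sets fell, and the share of all unfiltered probe sets that fell was not counted. Genes near the floor, such as Scg5, Neurod1 and Pcsk1 in heme mice, have the least certain fold. Of 784 counts over lists and alternatives 733 lay within 1.5 times the reported count.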

Other observations

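The mucosal mast cell proteases Mcpt1 and Mcpt2 were higher in heme mice than in controls, though not tested. Mcpt1 was at 2.62 to 3.35 in controls and 3.65 to 5.93 in heme mice, with 5 of 9 heme mice over the floor, and Mcpt2 at 2.80 to 2.96 and 3.47 to 5.06, also with 5 of 9 over it. All 9 heme mice lay above all controls for both. The heme level was at least 1.23-fold higher for Mcpt1 and at least 1.03-fold for Mcpt2, and neither gene passed the signal filter. Without that filter 4 of the 11 genes on the mast cell list were called higher, beside 2898 of all 18194 genes. Cpa3, a mast cell carboxypeptidase, was under the floor on all arrays, at 1.96 to 2.19 and 1.97 to 2.55 in the same groups.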
